A study of Mus musculus with 8 samples.

Results

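The receptors of the TNF receptor superfamily considered here are Tnfrsf4 (OX40), Tnfrsf9 (4-1BB), Tnfrsf18 (GITR), Cd27, Tnfrsf1b (TNFR2), Tnfrsf14 (HVEM), Tnfrsf1a (TNFR1), Tnfrsf25 (DR3) and Fas. These 9 genes were taken by symbol, for their roles in T cells, from 23997 genes in the deposited expression table, and all 9 were found there. RNA sequencing had been done on sorted CD4+YFP+ cells of C57BL/6 mice, taken from spleen and draining lymph nodes. Both groups carried Foxp3-YFP-Cre on 1 allele of Foxp3 (Foxp3-YFP-Cre/+), so that Cre and YFP are made in regulatory T (Treg) cells. Bcl11b-deficient cells came from Bcl11b f/f Foxp3-YFP-Cre/+ animals and Bcl11b-sufficient cells from Bcl11b f/+ Foxp3-YFP-Cre/+ animals, so the sufficient cells also held 1 floxed copy of Bcl11b, which encodes a zinc finger protein that T cell commitment requires. Foxp3 is X-linked, so animals with 1 Cre allele also keep Treg cells without Cre, which the YFP gate leaves out. Neither age nor the number of animals behind a library is given here. The comparison asked how the transcripts of these receptors differ between the Bcl11b-deficient and the Bcl11b-sufficient sorted cells.

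TNF receptors are surface proteins that bind trimeric ligands of the TNF family and pass the signal through their cytoplasmic tails. One class of tail recruits TRAF adaptors, which lead to NF-kB and to survival and growth of the T cell; OX40, 4-1BB, GITR, CD27, TNFR2 and HVEM belong to it. The other class carries a death domain, which can recruit caspase-8 or, through TRADD, NF-kB; TNFR1, DR3 and Fas belong to it. Treg cells are known for high surface OX40, GITR, TNFR2 and, once activated, 4-1BB, and these receptors take part in their expansion and in tuning their suppressive activity.

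Each group had 4 deposited columns, 3 pairs of which differed at high abundance far less than any other pair (spread of log2 ratios 0.0694 to 0.0938, against 0.175 to 0.262 for the other 9 pairs of the same group). Each such pair was averaged and counted as 1 sample. The pairs were replicates 1 with 3 and 2 with 4 among deficient columns, and 1 with 3 among sufficient columns. This left 2 deficient and 3 sufficient libraries, and every SD and test counts these. Approximate depth, read from the steps between low values, ran from 2690000 to 11900000 fragments per column. The labels tie no library to an animal of its own, so the p-values reflect only how these libraries vary, and that variation may be technical. Transcript of the targeted gene, Bcl11b, remained in the deficient libraries, with a mean at 50.8% of the sufficient one, and its source was not tested. Bcl11b stood at 24.4 and 19 FPKM (fragments per kilobase of transcript, scaled to sequencing depth) in deficient and at 42.4, 46.5 and 39.1 FPKM in sufficient libraries. Its log2 fold change, -0.95 (SE 0.14), was called (limma adjusted p = 0.0238), and the call ended without sufficient replicate 2 (0.0602), without filter (0.0726), at equal totals (0.0815) and without any averaged pair (0.0522 to 0.133). Treg identity genes were present in all libraries, with Foxp3 at 153 and 153 FPKM in deficient and 198, 198 and 165 FPKM in sufficient libraries (log2 fold change -0.28, SE 0.12, adjusted p = 0.285).

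Most of these genes lie on chromosome 4, spread among other genes. In the GENCODE M21 annotation of GRCm38, the build that mm10 names, 6 of the 9 lie on chromosome 4 within 10.8 Mb, 2 on chromosome 6 and Fas on chromosome 19. Tnfrsf4 (ENSMUSG00000029075.6, chromosome 4, 156013843 to 156016612, plus strand) and Tnfrsf18 (ENSMUSG00000041954.18, chromosome 4, 156026164 to 156028895, plus strand) are neighbours with 9551 bases between them. Tnfrsf9 (ENSMUSG00000028965.13) spans 150914562 to 150946102 on the same chromosome and strand, where the gene Camta1 overlaps it without sharing exon bases. The other members on chromosome 4 are Tnfrsf1b (ENSMUSG00000028599.10, 145213463 to 145246870, minus strand), Tnfrsf25 (ENSMUSG00000024793.14, 152115934 to 152120119, plus strand) and Tnfrsf14 (ENSMUSG00000042333.16, 154921933 to 154928563, minus strand). Cd27 (ENSMUSG00000030336.14, 125232622 to 125237010, minus strand) and Tnfrsf1a (ENSMUSG00000030341.17, 125349362 to 125362484, plus strand) lie on chromosome 6, and Fas (ENSMUSG00000024778.13) spans 34290666 to 34327772 on the plus strand.

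The sequences before the starts of Tnfrsf4 and Tnfrsf9 are shown because these were the members whose transcripts fell. All 9 members matched an entry among the RefSeq promoter windows of GRCm38.p6, with 11 start sites in all. The 250 bases before each start were searched on both strands for short motifs. These were GGG-R-NN-YY-CC (NF-kB), TGANTCA (AP-1), TGTGGT (RUNX) and GTAAACA (forkhead). In them R is A or G, N any base and Y C or T, and hyphens stand for no base. Capitals mark a match, and stretches inside annotated exons were left out apart from the 30 bases around the match at the downstream start of Tnfrsf9. The lines give the plus strand, which is that of both genes, at chr4:156013611-156013694, chr4:150919905-150920154 and chr4:150927947-150927976.
Tnfrsf4: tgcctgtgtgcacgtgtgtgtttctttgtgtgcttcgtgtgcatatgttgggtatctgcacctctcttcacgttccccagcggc
Tnfrsf9 upstream start: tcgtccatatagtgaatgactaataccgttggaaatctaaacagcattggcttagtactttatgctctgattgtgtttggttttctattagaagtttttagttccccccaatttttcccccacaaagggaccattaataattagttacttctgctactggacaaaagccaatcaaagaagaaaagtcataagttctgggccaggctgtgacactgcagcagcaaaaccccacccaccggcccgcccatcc
Tnfrsf9 downstream start: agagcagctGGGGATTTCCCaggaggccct

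The capitals at the downstream Tnfrsf9 start mark overlapping NF-kB matches, the first of which began 43 bases before that start, and a TGAGTCA match to the AP-1 motif stood 15 to 9 bases before it. The Tnfrsf4 window and the upstream Tnfrsf9 window held none of the 4 motifs. An NF-kB match was found in 2 of the 11 windows of members, 1 each of Tnfrsf9 and Tnfrsf25, and in 7.25% of all 32841 windows of this length. An AP-1 match was found in 2 of the 11, 1 each of Tnfrsf9 and Fas, and in 6.75% of all windows. A RUNX match was found in 1 of the 11, at Tnfrsf25 (14% of all windows), and a forkhead match in 0 of the 11 (3.17%). These are matches of letters and describe no binding.

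Tnfrsf4 and Tnfrsf9, both of the TRAF-binding class like most of the 9, fell in Bcl11b-deficient libraries, and no member was called higher. Tnfrsf4 stood at 31.6% of its sufficient level and Tnfrsf9 at 55.8%. The other 7 members did not pass the test, and of these Tnfrsf18 was nearest to it. With limma over 10614 genes and Benjamini-Hochberg adjusted p under 0.05, 2 of 9 members were called lower, against 0.697% of all genes tested, and 0 were called higher, against 1.93%; in either direction this is 2 of 9, against 2.63%. At an unadjusted p under 0.05 there were 5 of 9 members, against 17.8% of all genes tested, and the counts at this threshold for other gene lists are to be read against the same share. The fold change was below 0 for 7 of 9 members, where 52.1% of all genes tested were below 0. The median log2 fold change of the 9 was -0.32, beside -0.01 for all genes tested. In bulk libraries, fewer Treg cells in a sort and less transcript per Treg cell cannot be told apart.

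**Figure D1:**
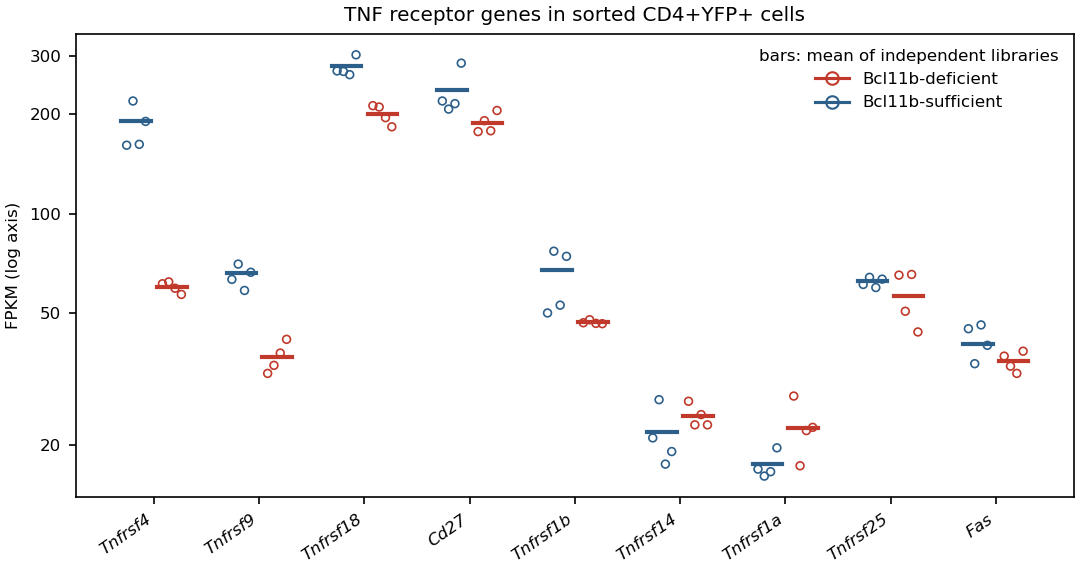
FPKM on a log axis for each of the 9 genes. Open circles are the 4 deposited columns of each group and bars the mean of the independent libraries; all deficient columns of Tnfrsf4 (57.0 to 62.2 FPKM) lie below all sufficient columns (161 to 219 FPKM), while the columns overlap for Tnfrsf14, Tnfrsf1a, Tnfrsf25 and Fas.

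Tnfrsf4 encodes OX40, a costimulatory receptor for OX40 ligand that sustains T cell survival. In replicate order, the deficient columns held 61.4, 62.2, 59.5 and 57.0 FPKM and the sufficient columns 161, 219, 162 and 190 FPKM. Every deficient column was low and close to the others, the sufficient columns were spread more widely, and the groups were far from overlapping. The deficient mean was 60.04 ± 0.622 FPKM (SD, n = 2) against 190.1 ± 28.9 FPKM (SD, n = 3), a log2 fold change of -1.64 (SE 0.14, 95% interval -1.97 to -1.30, limma adjusted p = 0.00800). Of all genes tested it had the 7th lowest p-value, and 6 called genes had a more negative fold change. The call ended when either deficient library was left out, with the lone deficient library assumed to vary as the sufficient ones (adjusted p = 0.0718 without replicates 1 and 3, 0.0647 without replicates 2 and 4), while the fold change stayed at -1.65 and -1.63.

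Tnfrsf9 encodes 4-1BB, a costimulatory receptor induced by T cell receptor signals. The 4 deficient columns gave 32.9, 34.8, 37.9 and 41.7 FPKM, in replicate order, and the 4 sufficient columns 63.3, 70.4, 58.6 and 66.5 FPKM. Again the lowest sufficient column stood above the highest deficient one. On average this was 36.83 ± 2.01 FPKM (SD, n = 2) against 65.97 ± 4.77 FPKM (SD, n = 3), a log2 fold change of -0.82 (SE 0.11, 95% interval -1.08 to -0.57, limma adjusted p = 0.0178). This call was less firm than that of Tnfrsf4: it ended at equal total FPKM (-0.61, adjusted p = 0.0665), at equal Foxp3 (-0.55, 0.0911), with sufficient replicate 2 left out (-0.77, 0.0524) and on dropping either deficient library (-0.77 and 0.144 with only replicates 2 and 4 left, -0.88 and 0.0957 with only 1 and 3).

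Tnfrsf18 encodes GITR, the receptor for GITR ligand, and had the highest mean of the 9 in both groups, with a range that overlapped that of Cd27. Its level was 212, 210, 195 and 183 FPKM across the deficient columns and 270, 269, 263 and 302 FPKM across the sufficient columns, both in replicate order. The groups did not overlap, yet the difference was small beside that of its neighbour Tnfrsf4, and it did not pass over all genes (means 199.9 ± 4.84 FPKM, n = 2, and 279.2 ± 19.5 FPKM, n = 3; log2 fold change -0.48, SE 0.11, 95% interval -0.74 to -0.21, limma adjusted p = 0.0810). With all 8 columns taken as separate libraries, which counts the near-identical ones as replicates, it passed (limma adjusted p = 0.00281). An annotated antisense gene, Gm16008, shares 27.2% of the exon bases of Tnfrsf18, and no source at hand says whether counting used strand, so reads of the pair cannot be told apart.

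Cd27 encodes the receptor for CD70, present on resting T cells. In replicate order, the deficient columns held 177, 191, 178 and 205 FPKM and the sufficient columns 219, 207, 215 and 285 FPKM. The groups nearly touched, and sufficient replicate 4 stood above the rest. Its log2 fold change of -0.32 (SE 0.16, 95% interval -0.69 to 0.06) did not pass (limma adjusted p = 0.356). A microRNA gene, Mir8113, lies within Cd27 exons and shares 5.54% of its exon bases.

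Tnfrsf1b encodes TNFR2, the TNF receptor most used by Treg cells. The 4 deficient columns gave 46.8, 47.8, 46.6 and 46.5 FPKM, in replicate order, and the 4 sufficient columns 50.1, 77.0, 52.9 and 74.3 FPKM. The averaged sufficient replicates 1 and 3 stood just above the deficient columns and the other sufficient libraries far above them. Its log2 fold change of -0.50 (SE 0.18, 95% interval -0.92 to -0.08) did not pass either (limma adjusted p = 0.217), and the spread among sufficient libraries was large beside the difference.

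Tnfrsf14 encodes HVEM, which binds LIGHT and also the inhibitory receptor BTLA. Its level was 27.1, 23.0, 24.7 and 23.0 FPKM across the deficient columns and 21, 27.4, 17.5 and 19.1 FPKM across the sufficient columns, both in replicate order. The groups overlapped through sufficient replicate 2 (log2 fold change 0.17, SE 0.17, limma adjusted p = 0.655, 95% interval -0.24 to 0.57).

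The receptors with a death domain were not called in either direction. Tnfrsf1a, the TNF receptor found on most cell types, stood at 28.1, 17.3, 22.1 and 22.6 FPKM in the deficient columns, in replicate order, and at 16.9, 16.1, 16.6 and 19.6 FPKM in the sufficient columns. Its averaged libraries did not overlap, at 25.1 and 19.9 against 16.8, 16.1 and 19.6 FPKM, but single columns did (log2 fold change 0.35, SE 0.14, limma adjusted p = 0.266, 95% interval 0.01 to 0.68). Markers of macrophages, which also make TNFR1, were also higher in deficient libraries: 6 of 12 tested were called higher, against 1.93% of all genes tested. Of those called, Itgam (sufficient mean 0.656 FPKM) entered the test only through the deficient libraries, as did Mertk (0.441 FPKM), which was not called. The 14 markers summed to 306 and 674 FPKM in the deficient libraries and to 19.1 to 80.6 FPKM in the sufficient ones. The number called was 0 without either deficient library and with no filter, 2 without sufficient replicate 2 or without sufficient replicate 4, 2 with a pseudocount of 0.1 or a filter on a mean of 5 FPKM, 3 with robust empirical Bayes, 9 with sufficient replicates 1 and 3 left out, 11 at equal totals and 12 at equal Foxp3. The higher macrophage sum and the higher Tnfrsf1a level were both in the averaged deficient replicates 1 and 3, although column 3 (22.1 FPKM) was not above column 4 (22.6 FPKM). Among sufficient libraries the macrophage marker C1qa was at 0.9, 11.2 and 11.1 FPKM, where Tnfrsf1a was at 16.8, 16.1 and 19.6 FPKM. The part of these cells in the result was not tested.

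Tnfrsf25 encodes DR3, the receptor for TL1A, whose stimulation expands Treg cells. In replicate order, the deficient columns held 65.2, 50.7, 65.5 and 43.9 FPKM and the sufficient columns 61.1, 64.2, 59.8 and 63.4 FPKM. The deficient libraries fell on either side of the sufficient ones (log2 fold change -0.17, SE 0.15, limma adjusted p = 0.594), and the sign turned at equal totals (0.04), at equal Foxp3 (0.11) and without deficient replicates 2 and 4 (0.06). Fas, the death receptor for Fas ligand, stood at 37.1, 34.6, 32.9 and 38.4 FPKM in the deficient columns, in replicate order, and at 44.9, 35.2, 46.1 and 40.0 FPKM in the sufficient columns. Its groups overlapped too (log2 fold change -0.16, SE 0.13, limma adjusted p = 0.571, 95% interval -0.46 to 0.14), and its sign turned under the same scalings (0.05 and 0.12).

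**Figure D2:**
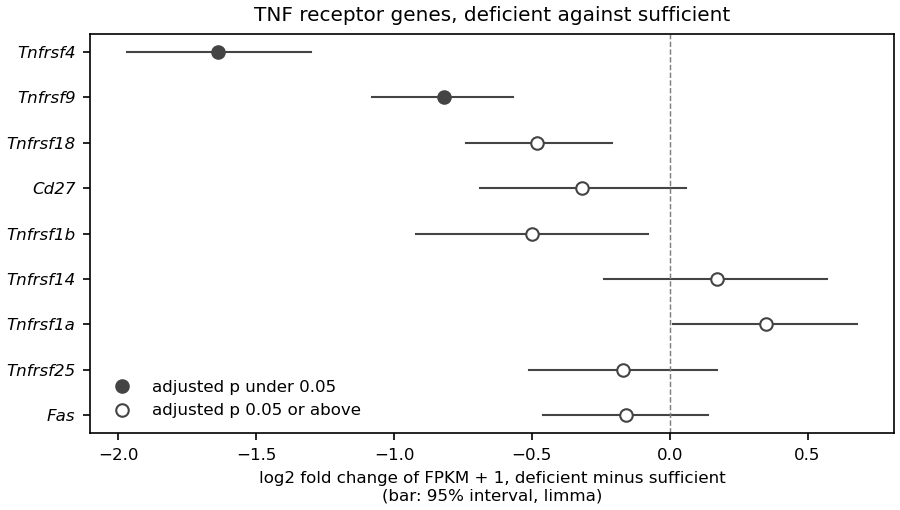
Log2 fold change of FPKM + 1, deficient minus sufficient, for the 9 genes, with 95% intervals from limma. Filled points passed the adjusted threshold: Tnfrsf4 at -1.64 and Tnfrsf9 at -0.82; the other 7 did not pass.

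Counted by overlap alone, the deficient libraries stood below all sufficient libraries for 5 of 9 members (Tnfrsf4, Tnfrsf9, Tnfrsf18, Cd27 and Tnfrsf1b), where 17.9% of all genes tested did so, and above them for 1 of 9 (Tnfrsf1a), where 18.9% did. The Treg and CD4 T cell markers were much alike in this, with 5 of 7 tested genes below and 1 above, so the downward shift was not particular to the receptors. The 5 members below have tails of the TRAF-binding class, but so do most of the 9. Tnfrsf14, also of this class, overlapped (log2 fold change 0.17), and a link to the class was not tested. The exact two-sided permutation test over libraries gave p = 0.1 for Tnfrsf4, Tnfrsf9 and Tnfrsf18, the smallest that 2 against 3 libraries allow, and 0.3 after adjustment over the 9 members, so this test could not have passed for any of them.

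Tnfrsf4 held rank 3 by mean level in both groups, but its distance to the receptors around it differed. In sufficient libraries the FPKM levels, which are per length and so comparable between genes, ran from Tnfrsf18 and Cd27 through Tnfrsf4 (190.1 FPKM), with overlapping ranges between neighbours, to a middle group of Tnfrsf1b, Tnfrsf9 and Tnfrsf25 (67.6, 66.0 and 62.7 FPKM), then Fas, Tnfrsf14 and Tnfrsf1a. In that order Tnfrsf4 stood apart from the middle group, whose members overlapped with each other. In deficient libraries Tnfrsf4 (60.04 FPKM) stood apart from Cd27 above it and overlapped with Tnfrsf25 below it, while Tnfrsf9 overlapped with Fas. The ranks that differed between groups were those of Tnfrsf1b, Tnfrsf9 and Tnfrsf25, whose ranges overlapped in sufficient libraries. Together the 9 genes summed to 671 ± 5.91 FPKM (SD, n = 2) in deficient and 981 ± 79.8 FPKM (SD, n = 3) in sufficient libraries, and Tnfrsf4 made up 41.9% of that difference. Its share of the sum was 8.96% and 8.94% in the deficient libraries and 17.9%, 22.2% and 17.9% in the sufficient ones.

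Ratios between genes of the same library do not depend on how libraries were scaled to each other. The ratio of Tnfrsf4 to Foxp3 was 0.396 and 0.388 in deficient libraries and 0.816, 1.11 and 1.15 in sufficient ones, so relative to Foxp3 the deficient level was 38.3% of the sufficient level. Relative to Cd4, the coreceptor of helper and regulatory T cells, Tnfrsf4 was at 0.209 and 0.202 against 0.644, 0.872 and 0.681. Relative to its neighbour Tnfrsf18 it was at 0.297 and 0.303 against 0.606, 0.814 and 0.629. In each of these ratios the deficient libraries lay together and far below the sufficient ones. For Tnfrsf9 the ratio to Foxp3 was 0.232 and 0.249 against 0.308, 0.356 and 0.403. Of the TRAF-binding members, Tnfrsf18 to Foxp3 nearly touched (1.33 and 1.28 against 1.35, 1.36 and 1.83) and Cd27 and Tnfrsf1b overlapped relative to Foxp3. Tnfrsf14, also of this class, was higher relative to Foxp3 in both deficient libraries (0.17 and 0.15 against 0.0972, 0.138 and 0.116). The deficient mean of Foxp3 itself was 81.9% of the sufficient one and that of Cd4 112%, so these positions depend on the denominator. Relative to Cd4, Tnfrsf18 (0.704 and 0.666 against 1.06, 1.07 and 1.08), Cd27 and Tnfrsf1b were lower in both deficient libraries, and Tnfrsf14 overlapped. The ratio of Tnfrsf1a to Tnfrsf18 was 0.123 and 0.101 in deficient libraries and 0.0628, 0.0596 and 0.0649 in sufficient ones, which is higher in each deficient library. Tnfrsf18 itself had a deficient mean at 71.6% of the sufficient one, which raises this ratio. Relative to Foxp3 and to Cd3e, Tnfrsf1a was also higher in both deficient libraries. Relative to Cd4 it overlapped (0.0868 and 0.0676 against 0.0669, 0.0639 and 0.0703). In all 35 ratios were computed, those to genes other than Foxp3 chosen after the data were seen, and the lowest exact permutation p was 0.1 (0.25 adjusted over the 35).

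**Figure D3:**
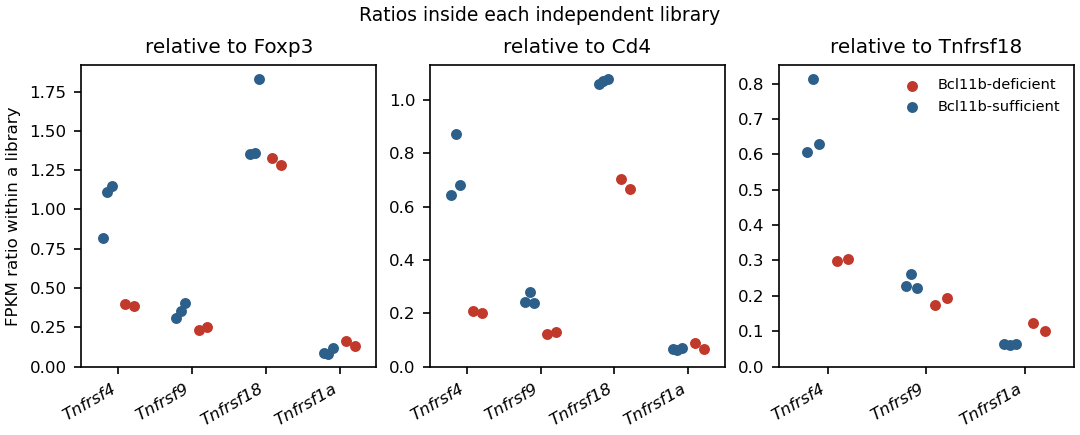
FPKM ratio of a receptor gene to Foxp3, Cd4 or Tnfrsf18 inside each independent library, 1 point a library. Tnfrsf4 lies lower in both deficient libraries in all 3 panels (0.297 and 0.303 relative to Tnfrsf18, against 0.606 to 0.814).

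None of the nearest tested neighbours of these receptors was called lower. In the 10.8 Mb of chromosome 4 from Tnfrsf1b to Tnfrsf18, 84 other genes were tested, 0 of which were called lower by limma and 3 higher (Agtrap, Plekhg5 and Slc25a33, named after their values were seen), with a median log2 fold change of 0.01. Over all genes tested 0.697% were called lower and 1.93% higher. A count of 0 lower is thus near the share of all genes and sets these neighbours apart from no other genes. At the Tnfrsf4 and Tnfrsf18 pair, Sdf4, which ends just before Tnfrsf4, measured 64.7 against 81.4 FPKM (log2 fold change -0.32, limma adjusted p = 0.246), and 9430015G10Rik on the other side 17 in both groups (adjusted p = 0.986). Beside Tnfrsf9, Park7 measured 94 against 137 FPKM (log2 fold change -0.53, limma adjusted p = 0.0644), Errfi1 2.56 against 4.93 FPKM (-0.73, 0.135) and Vamp3 31.9 in both groups (adjusted p = 0.999). On chromosome 6, the nearest tested gene after Tnfrsf1a was Cd9, a tetraspanin, which rose in the deficient group (mean 101 against 47.2 FPKM; 1.08 on the log2 scale, limma adjusted p = 0.00982).

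Genes with levels most like those of the called members across libraries were sought among the 6556 genes averaging 10 FPKM or more. Likeness was the root-mean-square difference of log2(FPKM + 1) values centred on each gene's mean over the 5 libraries. Nearest to Tnfrsf4 were Dusp10, a phosphatase of stress-activated MAP kinases (0.156), Stx1a, a syntaxin (0.248), and Tgif1, a homeodomain repressor (0.251). Dusp10 measured 23.1 and 19.1 FPKM in deficient and 47.4, 86 and 63.2 FPKM in sufficient libraries. Nearest to Tnfrsf9 were Tiam1, an exchange factor for Rac (0.031), Lclat1 (0.041) and Wls, a carrier of Wnt proteins (0.081). Tiam1 measured 18 and 18.4 FPKM in deficient and 30.6, 36.6 and 33.6 FPKM in sufficient libraries. All of these nearest genes were themselves called lower (limma adjusted p from 0.00800 to 0.0358). With 5 libraries and members called for a group difference, such a search favours genes with a like group difference. Likeness within groups was not tested.

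The rest of the superfamily was mostly weakly expressed and gave no calls with the settings used throughout. Of 19 other TNF receptor genes, all in the table, 8 passed the filter of a mean of 1 FPKM, and limma called 0 higher and 0 lower (2 at an unadjusted p under 0.05), with a median log2 fold change of 0.02. Tnfrsf21 (DR6), a receptor with a death domain, came nearest: it measured 2.28 and 1.69 FPKM in deficient and 0.284, 0.437 and 0.431 FPKM in sufficient libraries (log2 fold change 1.10, SE 0.22, limma adjusted p = 0.0510). Every deficient library was above every sufficient one, and Tnfrsf21 passed at equal totals, at equal Foxp3, with robust empirical Bayes and with 8 separate columns. Since it was above 1 FPKM only in the deficient libraries, it entered the test through the group where it is high, and with no filter its adjusted p was 0.0510 as well. Tnfrsf10b, the mouse TRAIL receptor, was lower in both deficient libraries at 2.79 and 2.70 against 4.28, 4.95 and 4.46 FPKM (adjusted p = 0.0991). Tnfrsf12a, the receptor for TWEAK, stood at 7.68 and 3.04 against 11.2, 7.19 and 7.27 FPKM (adjusted p = 0.351). Relt (24.6 and 20.3 against 21.7, 17.7 and 22.3 FPKM) and Tnfrsf26 (14.1 and 15.6 against 13.8, 15.3 and 15.6 FPKM) were the most abundant of these and overlapped between groups.

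Of the ligands of the family, which T cells and antigen-presenting cells display, none was called with these settings. Of 18 ligand genes 10 were tested, with 0 higher and 0 lower by limma (3 at an unadjusted p under 0.05) and a median log2 fold change of -0.05. Cd40lg, the ligand by which T cells help B cells, measured 31.6 and 39.1 FPKM in deficient and 21.2, 14.8 and 24.8 FPKM in sufficient libraries (log2 fold change 0.79, SE 0.21, limma adjusted p = 0.119), and it passed at equal totals (adjusted p = 0.0252), at equal Foxp3 (0.0477) and with 8 separate columns (0.0117). With no filter, Tnfsf12 (TWEAK), named after its values were seen, was called higher at 2.04 and 1.48 against 0, 0.109 and 0.155 FPKM (limma adjusted p = 0.0390). Ltb, a subunit of the lymphotoxin heterotrimer and the most abundant ligand, measured 426 and 411 against 512, 529 and 657 FPKM (log2 fold change -0.43, adjusted p = 0.196). Tnfsf10 (TRAIL) measured 20.1 and 28.4 against 18.1, 18.2 and 18.5 FPKM (adjusted p = 0.264), and Lta, the other lymphotoxin subunit, 52.9 and 50.1 against 48.6, 50.5 and 72.6 FPKM (adjusted p = 0.753). Ligands of the called receptors were low in these cells: Tnfsf4 (OX40 ligand) was at 0.801 and 0.743 against 0.821, 2.08 and 0.274 FPKM, below the filter, and Tnfsf9 (4-1BB ligand) at 3.76 and 2.77 against 3.32, 3.74 and 3.06 FPKM.

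The adaptors that bind the tails of OX40 and 4-1BB also gave no calls, except with 8 separate columns, where 3 were called lower and 1 higher. Of 13 TRAF adaptors and partners, all tested, limma called 0 higher and 0 lower (4 at an unadjusted p under 0.05), with a median log2 fold change of -0.11. Traf5, an adaptor of OX40 and CD27, measured 22.5 and 20.8 FPKM in deficient and 25.3, 29.6 and 28.6 FPKM in sufficient libraries (log2 fold change -0.35, SE 0.11, limma adjusted p = 0.180). Traf1, itself induced by NF-kB, measured 69.9 and 69.7 against 92.5, 80.7 and 111 FPKM (-0.42, adjusted p = 0.195). Birc2, a ubiquitin ligase bound to TRAF2, measured 35.8 and 35.6 against 43.5, 45.8 and 41.1 FPKM (-0.28, adjusted p = 0.216). For these 3 genes each deficient library stood below each sufficient one, while Birc3, a close relative of Birc2, overlapped (67.5 and 57.4 against 70.0, 70.4 and 61.8 FPKM, adjusted p = 0.672).

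**Figure D4:**
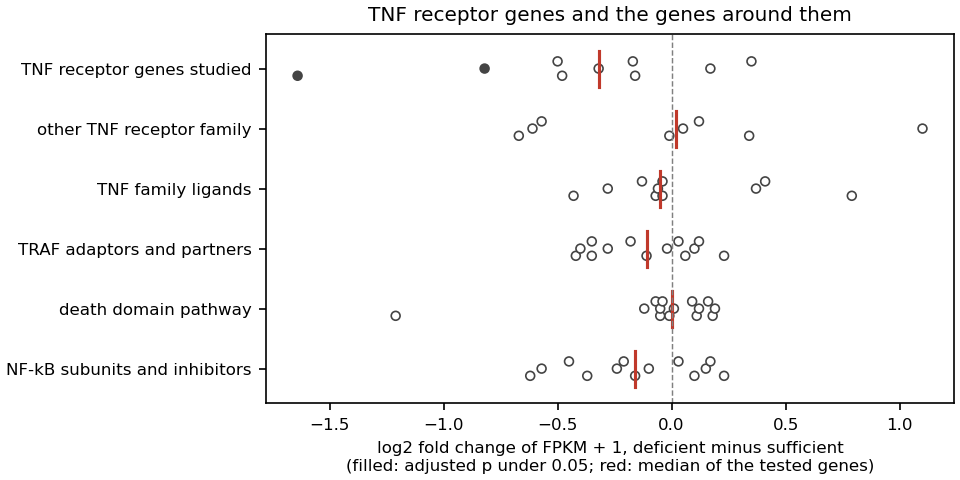
Log2 fold change of FPKM + 1, deficient minus sufficient, for every tested gene of 6 groups, 1 point a gene, with the group's median in red. Only 2 points are filled (adjusted p under 0.05), both among the 9 receptors; medians run from -0.32 for these to 0.02 for the other TNF receptor genes.

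Downstream genes were likewise not called with these settings; with 8 separate columns Ikbkg was called higher, and with a replicate block added Tnfaip3 lower. Of 14 genes of the death domain pathway, all tested, limma called 0 higher and 0 lower (1 at an unadjusted p under 0.05), with a median log2 fold change of 0.00. That 1 was Tnfaip3 (A20), which removes ubiquitin chains from the TNF receptor complex, at 285 and 94.8 FPKM in deficient and 524, 424 and 249 FPKM in sufficient libraries (-1.21, SE 0.48, limma adjusted p = 0.252); its deficient libraries differed widely from each other. Tnip1, a partner of A20, measured 118 and 107 against 120, 120 and 110 FPKM (adjusted p = 0.840), Daxx 67.9 and 61.0 against 59.2, 52.6 and 56.7 FPKM (0.396) and Rnf31, the catalytic subunit of the linear ubiquitin ligase, 45.3 and 40.2 against 37.6, 38.4 and 38.0 FPKM (0.448). Of 13 NF-kB subunits and inhibitors, all tested, 0 were called higher and 0 lower (1 at an unadjusted p under 0.05), with a median of -0.16. Relb, the subunit of the alternative pathway, measured 26.8 and 21.4 against 26.8, 36.9 and 36.9 FPKM (log2 fold change -0.45, limma adjusted p = 0.243), and Nfkbid 48.6 and 24.8 against 45.7, 60.2 and 57.7 FPKM (-0.62, 0.280). Ikbkg, the regulatory subunit of the IkB kinase, measured 13.9 and 13.4 against 10.9, 11.5 and 12 FPKM (0.23, 0.321). The most abundant were Nfkbia, the inhibitor IkB-alpha, at 314 and 212 against 328, 353 and 231 FPKM (adjusted p = 0.678), and Nfkb1, at 105 and 116 against 122, 122 and 111 FPKM (adjusted p = 0.677).

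Among genes of other cell types that a CD4+YFP+ gate could hold, macrophage and NK cell markers had higher sums in both deficient libraries, and those of B cells, CD8 T cells and dendritic cells did not. Of 6 tested NK cell markers limma called Klrd1, Klrk1 and Gzma higher, of which Klrd1 and Klrk1 entered the test only through the deficient libraries, being under 1 FPKM in every sufficient one. With a pseudocount of 0.1, or without sufficient replicate 2 or 4, 2 NK cell markers were called. The 8 NK cell markers in the table summed to 32.2 and 62.4 FPKM in deficient and 4.43 to 8.37 FPKM in sufficient libraries, though Ncr1, the marker most specific to NK cells, was at 0.156 and 0.539 against 0, 0.385 and 0 FPKM. Of the 6 tested, 4 stood above every sufficient library in both deficient ones, against 18.9% of all genes tested, and Klrd1 and Klrk1 are among these 4. Eomes (1.28 and 1.23 against 1.11, 1.32 and 1.15 FPKM) and Prf1 (1.92 and 2.12 against 1.68, 2.12 and 3.34 FPKM) overlapped. Dendritic cell markers summed to 130 to 135 against 117 to 132 FPKM, almost all of it Bst2 (121 and 119 against 116, 114 and 131 FPKM), which other cells also make. Siglech (6.29 and 2.34 against 0, 0.225 and 0.212 FPKM) and Batf3 (2.67 and 4.96 against 0.307, 0.896 and 0.295 FPKM) were called higher and likewise entered the test only through the deficient libraries. With a filter on a mean of 5 FPKM only Bst2 was tested, and it was not called. No dendritic cell marker was called with a pseudocount of 0.1 or with any sufficient library left out. Itgax (1.26 and 1.22 against 0.0106, 0.174 and 0.142 FPKM), Xcr1, Clec9a and Flt3 were below the filter used throughout. They too stood above every sufficient library in both deficient ones, while Zbtb46 overlapped. B cell markers had 0 of 3 tested called and summed to 10.4 and 14.4 against 11 to 23.9 FPKM, and CD8 T cell markers 0 of 1 tested, with sums of 10.6 and 11.2 against 11.6 to 15.1 FPKM. Of T cell genes, Cd4 measured 289 and 295 against 251, 251 and 278 FPKM (adjusted p = 0.476), Cd3e 256 and 250 against 277, 259 and 298 FPKM (0.584) and Il2ra, the alpha chain of the IL-2 receptor, 103 and 122 against 202, 151 and 185 FPKM (0.0783). The Treg and CD4 T cell list, 7 of whose 8 genes were in the table, had 1 called lower, the inhibitory receptor Ctla4 (119 and 103 against 477, 375 and 274 FPKM), and 0 higher, with a median log2 fold change of -0.28. Of the 7 genes tested in this list, 3 had an unadjusted limma p under 0.05. The Ctla4 call ended on dropping either deficient library (limma adjusted p = 0.118 and 0.130), with sufficient replicate 2 left out (0.0557) and with no filter (0.0745). The part of other cells in the lower Tnfrsf4 and Tnfrsf9 levels was not tested; at equal Foxp3 the log2 fold change of Tnfrsf4 was -1.36 (limma adjusted p = 0.00698) and that of Tnfrsf9 -0.55, no longer called (0.0911).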

How the data were processed

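The authors deposited FPKM values per gene for RNA sequencing libraries, with the unit taken from the name of the deposited table and from its values. Per the labels' protocols, a stranded total RNA kit was used, with sequencing on HiSeq or MiSeq instruments. Per the submitters' processing notes, the tools were STAR 2.5.1, Cuffdiff and Cuffnorm (both 2.2.1), cutadapt 1.12, Trim Galore 0.4.2 and FastQC, and the build was mm10. Settings, order and the scaling between libraries are not given here. Of the value columns 8 matched samples by title, and 8 matched none and were not used.

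Columns of 1 group were averaged where the spread of log2 ratios between them (interquartile range in units of a normal SD) was under 0.12 among genes with 160 to 320 FPKM times kilobases, a bound set after the data were seen. In 3 averaged pairs it was 0.0694 to 0.0938, and in 9 other pairs of the same group 0.175 to 0.262. Depth was approximated from the commonest FPKM times length among genes of 1 annotated transcript under 1 FPKM. Because whole reads could not be recovered for nearly all genes, count models were left out. By this depth each member rested on roughly 70 to 5280 fragments per column.

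The test was limma 3.58.1 (R 4.3.3) on log2(FPKM + 1) for genes averaging 1 FPKM or more across the 5 libraries, using its trend option, group as the only term, two-sided p-values and Benjamini-Hochberg adjustment over all genes. Fold changes on this scale understate the change of low genes. The fit was tested on simulated data. Adgre1 was read under its older symbol Emr1, and Trac was not found under that symbol. Members and lists were chosen with earlier results of these data known. Named genes were the 9 members, called genes of each list, its 3 lowest adjusted p and 2 highest means, Bcl11b, 4 T cell genes, and the 3 genes nearest each called member. Neighbours, Tnfsf4, Tnfsf9, Tnfsf12, Ctla4 and the markers of other cells named were added after their values were seen. Alternatives were another pseudocount, filters, scalings, robust empirical Bayes, separate columns, a replicate block, and leaving out columns or libraries.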

Additional observations from a re-analysis of the deposited data

How the results depend on the processing

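The log2 fold changes of Tnfrsf4 ranged from -1.75 to -1.36 and those of Tnfrsf9 from -0.89 to -0.55 over all alternatives. Of the 9 members, 1 was called lower at equal total FPKM and 1 at equal Foxp3 FPKM, in place of 2, and those scalings moved the median log2 fold change of all genes to 0.18 and 0.25 from -0.01. Leaving out a column or an averaged pair gave between 0 and 2 members called lower, with 0 without either deficient library. No member was called higher under any alternative run. The log2 fold change of Tnfrsf25 turned to 0.040 at equal totals and 0.11 at equal Foxp3, and that of Fas to 0.050 and 0.12. Leaving out columns or libraries moved Tnfrsf25 between -0.40 and 0.061, the latter without deficient replicates 2 and 4. The cause of these changes was not tested.

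Over all genes 279 were called. The count was 182 with a pseudocount of 0.1, 99 with no filter, 113 with a filter on a mean of 5 FPKM, 572 at equal Foxp3 and, with columns or libraries left out, from 8 to 297: dropping a deficient library gave 8 or 16, and dropping a sufficient one gave 80 (replicate 2), 133 (replicate 4) or 167 (replicates 1 and 3). Calls were higher in the deficient group for 73.5% as reported, 91.9% at equal totals, 94.6% at equal Foxp3 and 91.9% with no filter. With 8 columns as separate libraries, 1851 genes were called, and 1418 with the replicate block, under which 3 members were lower, Tnfrsf18 among them (adjusted p = 0.0179). The columns share only a number: same-numbered deviations correlated at 0.0543, 0.0957, 0.174 and 0.117, and deficient replicate 1 correlated best with sufficient replicate 2 (0.159). With 2 deficient libraries, power was limited.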
